A study of Mus musculus with 16 samples.

Results

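The genes described here are 9 of the 89407 rows of the count table: Cybb, Cyba, Ncf1, Ncf4 and Rac2 of the phagocyte NADPH oxidase, the leukocyte actin regulators Lsp1, Coro1a and Hcls1, and Ptprc, the gene of the leukocyte surface protein CD45. They were found by their Ensembl identifiers, and all 9 are in the table. The set was chosen by measured values: Ncf1 and Lsp1 were selected on being among the genes most raised in mature medullary thymic epithelial cells (mTEC) without a limit to one genotype, and so the difference between mature and immature mTEC of the 9 genes is given as a description and without a test, in tKO and control mice alike. Ptprc was set beside the others as a check for blood cells.

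The phagocyte oxidase makes superoxide in neutrophils and macrophages. Its catalytic core is a membrane pair of CYBB (gp91phox) and CYBA (p22phox), and it becomes active when cytosolic subunits, among them NCF1 (p47phox) and NCF4 (p40phox), and a RAC GTPase join that pair. LSP1, coronin 1A and HCLS1 bind actin or its regulators and are best known from leukocytes. Mature mTEC carry high MHC class II, many of them express Aire, and they are known for transcribing a wide range of genes that other tissues use.

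The libraries came from 8 mice, and each mouse gave 1 library of mature and 1 of immature mTEC, which makes 16. In the Rbfox1 line, 2 thymus knockout (tKO) mice were Rbfox1 lox/lox with 1 Cre allele in the Foxn1 locus, and 2 control mice were Rbfox1 lox/lox with wild-type Foxn1. In the Rbfox2 line, 2 tKO mice and 2 control mice had the same genotypes with Rbfox2 lox/lox in place of Rbfox1. Foxn1 drives Cre in thymic epithelium, and every tKO mouse carried Cre, so the effect of Cre itself cannot be told apart from that of losing the RBFOX gene. The mice were 4 to 6 weeks old, and their strain is C57BL/6 by the labels and a mixture of 129S2/Sv and C57BL/6J by the methods. From each mouse 10000 cells per population were sorted as negative for CD45 and Ly51 and positive for EpCAM and UEA, with high MHC class II for mature and low MHC class II for immature mTEC. CD45, against which the cells were gated, is the protein that Ptprc encodes.

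Mature libraries held 3737884 to 4636367 counts in all and immature libraries 1506134 to 2430287, so depth and population went together. In every condition the 2 libraries differed beyond counting noise. Each condition held 1 female and 1 male mouse, so mouse and sex cannot be told apart within it. Epcam was present at 607 CPM (counts scaled by library size, TMM-normalised over the 16 libraries) on average in mature against 753 CPM in immature mTEC, and Aire at 1087 and 141 CPM. Rbfox2 had 35 and 70 counts in the 2 mature Rbfox2 tKO libraries against 247 and 231 in their controls. Rbfox1 had 156 and 126 counts in the 2 mature Rbfox1 tKO libraries against 247 and 225 in theirs. In immature mTEC Rbfox2 was at 37.5 and 23.4 CPM in Rbfox2 tKO mice against 105 and 93.8 CPM in their controls. There Rbfox1 was at 151 and 152 CPM in Rbfox1 tKO mice against 163 and 159 CPM, so its gene-level counts showed little loss. 1 immature library, of Rbfox1 control replicate 3, stood apart for Ptprc, with 13 counts, where the other 7 had 2 to 8. The pooled ratios to Ptprc in immature mTEC are given with and without it. The log2 fold change of Ptprc between the populations in control mice is given with it only.

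In mature mTEC 7 of the 8 other members were present at a level well above that of Ptprc, and Hcls1 at one close to it. Per kilobase of the longest coding transcript in GENCODE M21, Cyba was highest in mature mTEC, with a median of 663 CPM per kb (lowest 580, highest 801). Ncf1 followed with 165 CPM per kb, then Rac2 with 116, Ncf4 with 103, Lsp1 with 101, Cybb with 28.3, Coro1a with 26.0, Hcls1 with 2.96 and Ptprc with 2.17. The libraries of Cyba and Ncf1, of Lsp1 and Cybb, and of Coro1a and Hcls1 did not overlap on this scale, whereas the ranges of all the other neighbours in that order did. In immature mTEC Cyba was again highest, at 127 CPM per kb, followed by Ncf4 at 15.5, Rac2 at 12 and Ncf1 at 7.64, and the order ended with Hcls1 at 1.05 and Ptprc at 0.314.

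**Figure D1:**
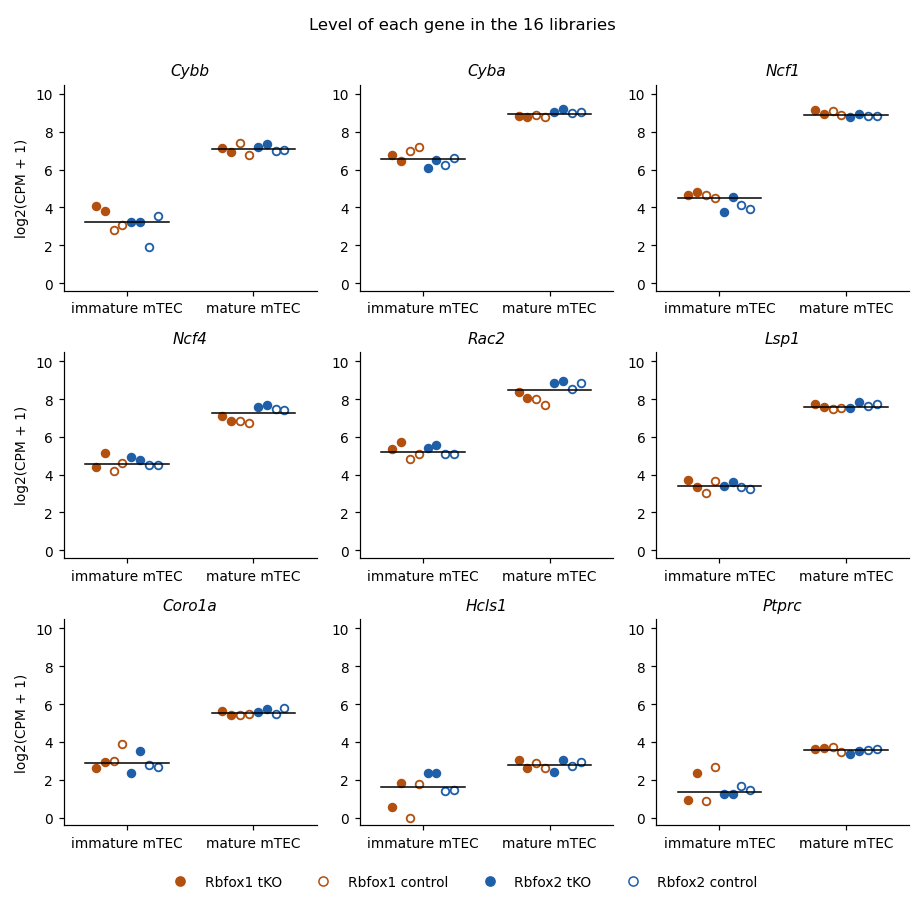
Level of each of the 9 genes in the 16 libraries, on a log2(CPM + 1) axis, with 1 point per library, filled for tKO and open for control mice, and a line at the median of the 8 libraries. In mature mTEC Ncf1 lies between 441 and 559 CPM and Ptprc between 9.22 and 12.3 CPM, and for every gene the 8 mature libraries lie above the 8 immature ones, by the narrowest margin for Hcls1. The share of all genes that separate in this way is not given here.

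The sequence before the transcription start is shown for 3 members of different role: Ncf1, with the largest difference between the populations, Cybb, the catalytic subunit, and Ptprc, the check gene. The sequences are the 250 bases before a RefSeq start in GRCm38.p6, from the minus strand, chr5:134229626-134229875 for Ncf1, chrX:9469325-9469574 for Cybb and chr1:138175306-138175555 for the first of the Ptprc starts. Capitals mark matches, on either strand, to any of 5 motifs: GAGGAA (the core bound by PU.1), AGGAAGT (a broader ETS site), GAAAGTGA (as bound by IRF factors and PRDM1), GGGCGG (the GC box) and TATAAA. The first and second of these can overlap.
Ncf1: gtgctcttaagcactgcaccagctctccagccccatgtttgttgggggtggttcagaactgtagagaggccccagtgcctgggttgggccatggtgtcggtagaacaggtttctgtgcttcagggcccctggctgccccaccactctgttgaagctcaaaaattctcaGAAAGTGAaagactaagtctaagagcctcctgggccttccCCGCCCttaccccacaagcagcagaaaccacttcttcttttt
Cybb: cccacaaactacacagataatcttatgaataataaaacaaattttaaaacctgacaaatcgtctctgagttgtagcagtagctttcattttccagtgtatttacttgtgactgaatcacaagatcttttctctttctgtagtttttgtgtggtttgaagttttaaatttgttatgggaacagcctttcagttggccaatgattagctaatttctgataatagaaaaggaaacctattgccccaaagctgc
Ptprc: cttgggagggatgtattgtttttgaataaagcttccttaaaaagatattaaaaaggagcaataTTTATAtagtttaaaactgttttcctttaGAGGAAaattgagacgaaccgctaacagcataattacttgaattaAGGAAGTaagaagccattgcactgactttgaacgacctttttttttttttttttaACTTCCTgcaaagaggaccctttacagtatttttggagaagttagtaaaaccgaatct
The windows share few features. That of Ncf1 holds 54.4% G and C, 1 GAAAGTGA that begins 82 bases before the start, and 1 GC box at 42 bases. The Cybb window holds 34.0% G and C and no match to the 5 motifs. The Ptprc window holds 31.6% G and C, 1 GAGGAA, 2 AGGAAGT and 1 TATAAA. Both windows lie inside the GENCODE M21 span of their gene, not before its outer end. Shorter cores than these motifs were not searched. Of 32851 promoter windows of this length, 1.21% hold GAAAGTGA, 23.3% GAGGAA, 7.69% AGGAAGT, 32.7% the GC box and 12.4% TATAAA. Windows of Cyba, Coro1a and Hcls1 were also searched. Cyba holds 2 GC boxes, Coro1a 1 at its first start and none at its other start, and Hcls1 holds 1 AGGAAGT and 1 TATAAA. GAAAGTGA was found in the Ncf1 window alone among these 6 genes, and a match is a description of letters, not a bound site. Windows for Ncf4, Rac2 and Lsp1 were not analysed here.

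The question of the first comparison is how these genes differ between mature and immature mTEC, described first in the 4 tKO mice. All 9 had a fitted difference of more than 2-fold towards mature mTEC in these mice. Of 16578 genes tested in the same fit, 26.3% were called higher and 11.9% lower (fold over 2 and an adjusted p under 0.05, Benjamini-Hochberg, edgeR's quasi-likelihood test). The median log2 fold change of the 9 genes was 2.88, and that of all tested genes was 0.07. A rise in mature mTEC was common among all tested genes, and nothing is read from the count of members. Ptprc and Hcls1 passed the filter on low counts through their mature libraries, since only 7 of the 9 members pass it in immature libraries alone. In bulk samples, fewer cells of a type and less RNA per cell cannot be told apart.

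The membrane subunits were higher in mature mTEC by unequal amounts. Cybb (ENSMUSG00000015340, chromosome X of GRCm38 from 9435252 to 9487771, minus strand) was at 141, 120, 143 and 160 CPM in mature mTEC of the tKO mice and at 15.7, 13.3, 8.34 and 8.26 CPM in their immature mTEC, in the order Rbfox1 replicates 2 and 3, Rbfox2 replicates 1 and 2. The log2 fold change was 3.68 (SE 0.133, edgeR). Cyba (ENSMUSG00000006519, chromosome 8 from 122424776 to 122432930, minus strand), which also serves other NADPH oxidases, was at 451, 432, 524 and 596 CPM in mature and 107, 85.6, 68.1 and 91.5 CPM in immature mTEC. That is a log2 fold change of 2.51 (SE 0.0934). Cyba was the member with the highest level per kilobase in both populations, and its log2 fold change was below that of Cybb, a difference that was not tested.

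Of the cytosolic subunits, Ncf1 had the largest log2 fold change, which was also the largest of the 9 genes. Ncf1 (ENSMUSG00000015950, chromosome 5 from 134220053 to 134229625, minus strand) encodes the subunit that, once phosphorylated, brings the cytosolic complex to the membrane. It was at 559, 484, 441 and 483 CPM in mature mTEC and 24.0, 27.5, 12.5 and 22.0 CPM in immature mTEC of the tKO mice. The log2 fold change was 4.55 (SE 0.115), or 23.4-fold. The exons of Ncf1 share 408 bases with Gtf2ird2 on the opposite strand, with the strand setting of the counting not given in the sources used here. Ncf4 (ENSMUSG00000071715, chromosome 15 from 78244801 to 78262580, plus strand), whose product binds phosphoinositides of the phagosome membrane, had a log2 fold change of 2.53 (SE 0.123). Its levels were 114 to 204 CPM in mature and 20.3 to 34.7 CPM in immature mTEC. Rac2 (ENSMUSG00000033220, chromosome 15 from 78559167 to 78572783, minus strand) encodes the hematopoietic RAC GTPase of the oxidase. It was at 268 to 496 CPM in mature and 39.3 to 51.5 CPM in immature mTEC, a log2 fold change of 3.11 (SE 0.103).

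Of the actin regulators, Lsp1 had a log2 fold change close to that of Ncf1. Lsp1 (ENSMUSG00000018819, chromosome 7 from 142460809 to 142494867, plus strand) encodes an F-actin binding protein of leukocytes and endothelium. It was at 210, 190, 185 and 225 CPM in mature mTEC and 12, 9.17, 9.73 and 11 CPM in immature mTEC of the tKO mice. The spread within each population was small beside the gap between them, and the log2 fold change was 4.27 (SE 0.133), or 19.3-fold. Coro1a (ENSMUSG00000030707, chromosome 7 from 126699773 to 126707787, minus strand), a regulator of ARP2/3-dependent actin assembly, was at 42.4 to 53.0 CPM in mature and 4.17 to 10.3 CPM in immature mTEC, which is a log2 fold change of 2.88 (SE 0.194). Its exons share 26 bases with Bola2 on the opposite strand. Hcls1 (ENSMUSG00000022831, chromosome 16 from 36934983 to 36963212, plus strand), the hematopoietic relative of cortactin, had only 16 to 33 counts in a mature library and 1 to 6 in an immature library of these mice. Its log2 fold change of 1.28 (SE 0.408) was the smallest of the members. It was 0.88 without the immature library of Rbfox1 tKO replicate 2, 0.98 at equal depth and 0.49 in the Rbfox2 line alone.

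Ptprc (ENSMUSG00000026395, chromosome 1 from 138062861 to 138175708, minus strand) was at 11.3, 11.8, 9.22 and 10.6 CPM in mature and 0.924, 4.08, 1.39 and 1.38 CPM in immature mTEC of the tKO mice. The immature values rest on 2 to 8 counts a library. The log2 fold change was 2.53 (SE 0.371).

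In the control mice the log2 fold changes were 4.68 for Ncf1 (SE 0.0981), 4.38 for Lsp1, 4.32 for Cybb, 3.28 for Rac2, 2.70 for Ncf4, 2.57 for Coro1a, 2.19 for Cyba, 2.14 for Ptprc and 1.99 for Hcls1. In that fit 26.8% of 16750 genes were called higher, with 11.1% called lower. Taking all 8 mice, Ncf1 was 17.6 to 35.3 times higher in mature than in immature mTEC of the same mouse, with a median of 23.2. Lsp1 was 15.5 to 25.8 times higher. Ptprc varied more, from 1.86 times in Rbfox1 control replicate 3 to 14.3 times. Among 2241 genes with a mean of at least 100 CPM in mature mTEC, ranked by the difference between mature and immature mTEC in log2(CPM + 1), Ncf1 was 16, Lsp1 26 and Cybb 34. These ranks are a description, since the genes were kept by their mature level and Ncf1 and Lsp1 were chosen by this rise. Among all genes tested in the tKO mice, most of them under 100 CPM in mature mTEC, 7.54% had a larger log2 fold change than Ncf1 and 8.43% a larger one than Lsp1.

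**Figure D2:**
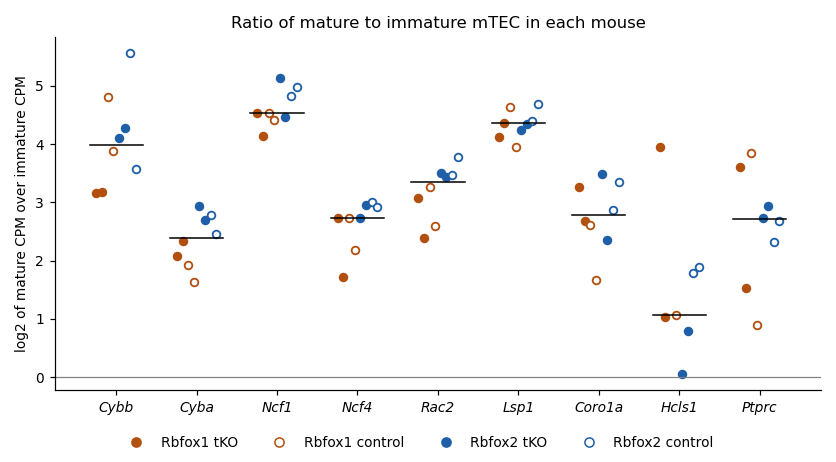
Ratio of the CPM in mature to that in immature mTEC of the same mouse, on a log2 axis, with 1 point for each of the 8 mice and a line at the median. Ncf1 (17.6 to 35.3 times) and Lsp1 (15.5 to 25.8 times) are tightly placed, Ptprc (1.86 to 14.3 times) is spread, and Hcls1 has 7 points, since 1 immature library held no Hcls1 count.

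Of 15 further genes of the oxidase family and its regulators, 13 were tested in the tKO mice, 3 were called higher and 1 lower, and the median log2 fold change was 0.32. These shares were near those of all tested genes, of which 26.3% were called higher and 11.9% lower. Cybc1, the chaperone of the membrane pair, had a log2 fold change of 0.01 (SE 0.110, adjusted p = 0.946 in edgeR). Rac1, the broadly expressed GTPase that can take the place of Rac2, was at 262 CPM in mature against 298 CPM in immature mTEC, with a log2 fold change of -0.16 (SE 0.069). Per kilobase, Rap1a, a small GTPase found with the oxidase, was highest of this list in mature mTEC, at 69.2 CPM per kb, and Rac1 followed at 63.0. Nox1, the catalytic subunit of the colon oxidase, rose by a log2 fold change of 3.61, Noxa1, its activator, by 3.14, and Duox2, a peroxide-making oxidase of thyroid and airway, by 1.30. Nox1 and Noxa1, with 1 to 5 and 0 to 2 counts in an immature library, passed the filter on low counts through their mature libraries. Duoxa1, the maturation factor of DUOX1, fell by 1.83 on the log2 scale. Nox3, of the inner ear, was the lowest of the list in mature mTEC, at 0.115 CPM per kb.

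Of 24 further genes of leukocyte actin and RAC signalling, 21 were tested in the tKO mice, 13 were called higher and 2 lower, with a median log2 fold change of 1.82, where 26.3% of all tested genes were called higher. Genes near 0 in immature mTEC, Nckap1l among them with 2 to 8 counts in an immature library, passed the filter on low counts through their mature libraries. Nothing is read from the count of genes called. The largest rises were those of Nckap1l (4.50), the hematopoietic subunit of the WAVE complex, Itgal (3.11), the alpha chain of the integrin LFA-1, and Plek (3.10), a protein kinase C substrate of platelets. Vav1, an exchange factor for RAC, fell by 1.98 and Evl, an actin polymerase of the ENA/VASP family, by 1.47. Per kilobase, the highest gene of the list was Lcp1, an actin bundling protein, at 213 CPM per kb in mature and 99.5 in immature mTEC, and the lowest was Rhoh, at 0.285 and 0.0875 CPM per kb. None of the 4 tested genes among broadly expressed relatives of the members passed the fold threshold. Their log2 fold changes were -0.58 for Cttn (cortactin), -0.51 for Coro1c, -0.16 for Rac1 and 0.08 for Coro1b.

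Markers of other cells moved with the members, and their calls in the tKO mice stand beside 26.3% of all tested genes called higher in the same fit. Of 8 pan-leukocyte genes including Ptprc, 5 were tested in the tKO mice and all 5 were called higher. Their summed level was 1073 to 1629 CPM in mature and 211 to 378 CPM in immature mTEC over the 8 mice, mostly from Laptm5, a lysosomal membrane protein, at 1123 CPM in mature against 194 CPM in immature mTEC. Of 14 T cell and thymocyte genes, 7 were tested and 4 were called higher, with summed levels of 168 to 212 CPM against 60.2 to 116 CPM. Per kilobase, Thy1 was highest in mature mTEC at 52.1 CPM per kb and Rag2 lowest at 0.0526. Cd3e, a defining T cell gene, was at 2.0 CPM in mature against 0.388 CPM in immature mTEC. Of 6 B cell genes, 5 were tested and all 5 called higher, and the sums were 59.6 to 79.4 CPM against 7.65 to 16.1 CPM. Per kilobase, Cd79b was highest in mature mTEC at 16.7 CPM per kb and Ighm had no count in any library.

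Of 17 dendritic cell and macrophage genes, 11 were tested and 10 were called higher (26.3% of all tested genes were), with summed levels of 417 to 528 CPM in mature and 59.0 to 98 CPM in immature mTEC. Per kilobase, Lyz2, a lysozyme of myeloid cells, was highest in mature mTEC at 168 CPM per kb. Itgam (CD11b) was lowest, at 0.0229 CPM per kb in mature mTEC, with a count in 3 of 8 libraries, and had no count in immature mTEC, and Clec9a had none in immature mTEC either. Adgre1 (F4/80), by contrast, was at 31.4 CPM in mature mTEC and had counts in 1 of 8 immature libraries. Of 9 granulocyte genes, 6 were tested, 5 were called higher and 1, Ltf, lower. Their sums were 369 to 426 CPM in mature and 56.8 to 286 CPM in immature mTEC. Ly6g (6.09), Mpo (5.32) and Camp (4.89) had the largest log2 fold changes. Per kilobase, S100a8 was the highest of the list in mature mTEC at 210 CPM per kb and Cxcr2 the lowest at 0.609, and Elane had no count in immature mTEC. A marker near 0 in immature mTEC passed the filter on low counts through its mature libraries. The part of such cells in the rise of the 9 genes was not tested.

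**Figure D3:**
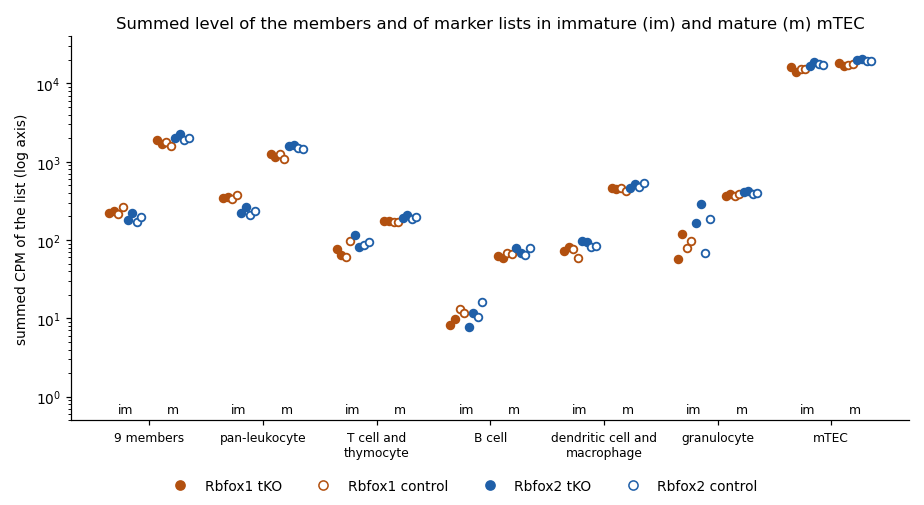
Summed CPM of the 9 genes and of 6 marker lists in the 8 immature (im) and 8 mature (m) libraries, on a log axis, with filled points for tKO and open points for control mice. The leukocyte lists and the 9 genes are all higher in mature libraries, and the pan-leukocyte sum (1073 to 1629 CPM) contains Ptprc and is mostly Laptm5.

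Of 11 tested mTEC genes, 5 were called higher, with Cd86 (5.46), Cd80 (3.70) and Aire (3.57) leading, and Krt5 (-2.94) and Krt14 (-2.91) were called lower. Cd74, the invariant chain of MHC class II, was highest of that list, at 7050 CPM per kb in mature mTEC, and Ccl21a had no count there. Of 11 tuft mTEC genes 6 were called lower and 1, Gfi1b, higher, and of 5 tested microfold mTEC genes 2 (Ccl20 and Ccl9) were called higher. Of all tested genes 26.3% were called higher and 11.9% lower. Among transcription factors known from blood cells, 7 were tested, 3 were called higher and 2 lower. Cd86 and Spi1, each with 0 to 4 counts in an immature library, passed the filter on low counts through their mature libraries. Spi1, which encodes PU.1, rose by a log2 fold change of 3.55 to 16.8 CPM in mature mTEC, Irf8 rose by 1.81 to 391 CPM and Ikzf1 by 1.36, whereas Runx1 fell by 2.46 and Ets1 by 1.61.

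The number of counts for each Ptprc count is given for both populations as a description, since the choice of Ncf1 and Lsp1 rests on the same difference. Over the 8 mature libraries there were 44.8 Ncf1 counts for each Ptprc count (95% exact binomial interval 40.5 to 49.8), and over the 8 immature libraries 8.89 (6.29 to 12.9). Without Rbfox1 control replicate 3 the immature ratio was 11.6 (7.55 to 18.6). Lsp1 had 18.1 counts for each Ptprc count in mature mTEC (16.3 to 20.1) and 4.19 in immature mTEC (2.90 to 6.21), and Cybb had 12.5 (11.3 to 13.9) and 3.86 (2.66 to 5.74). Rac2 had 32.1 (29.0 to 35.7) and 16 (11.4 to 23.0), and 21.4 (14.1 to 34.1) in immature mTEC without Rbfox1 control replicate 3. By library, the ratio of Ncf1 was 39.4 to 49.5 in mature and 4.15 to 28 in immature mTEC. That of Lsp1 was 14.7 to 21.3 and 2.23 to 13, and neither overlapped. The share of all genes whose ratio separates in this way is not given here. The ratio of Cybb was 10.2 to 15.5 in mature and 1.25 to 17 in immature libraries, and that of Rac2 20.5 to 50.3 and 6.31 to 42.5, and both overlapped between the populations. For Cyba the ratios were 45.2 and 43.7, for Ncf4 13.6 and 10.2, for Coro1a 4.28 and 3.19 and for Hcls1 0.546 and 0.833. Without Rbfox1 control replicate 3 the immature ratios were 53.1 for Cyba, 13.4 for Ncf4, 3.52 for Coro1a and 1.04 for Hcls1. They were 5.30 for Lsp1 and 5.26 for Cybb. The immature ratio of Cyba thereby moved from below to above its mature ratio. The intervals cover counting error only, and immature libraries held 36 Ptprc counts in all.

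Whether libraries with more Ptprc also held more of the other members was asked within each population. Across the 8 mature libraries, none of the 8 relations of Ptprc with another member passed an exact two-sided permutation test after adjustment over the 8. Pearson's r of log2(CPM + 1) was highest for Ncf1, at 0.62 (exact permutation p = 0.0987, adjusted p = 0.495; Spearman's rho 0.57, exact permutation p = 0.151). It was lowest for Ncf4, at -0.41 (exact permutation p = 0.315, adjusted p = 0.798; rho -0.43, p = 0.299). Without the 2 libraries farthest from the median of Ptprc these r were 0.46 and -0.88, and with the mean of each line subtracted they were 0.51 and -0.09. Ptprc spanned only 34 to 58 counts in these libraries, which limits what such a relation can show. Across the 8 immature libraries none of the 8 relations passed either. Pearson's r was highest for Coro1a, at 0.55 (exact permutation p = 0.139, adjusted p = 0.736; rho 0.26, p = 0.536), and lowest for Cybb, at -0.03 (exact permutation p = 0.937, adjusted p = 0.937; rho -0.07, p = 0.882). The r of Coro1a rested on libraries at the ends, and was -0.06 without the 2 farthest from the median of Ptprc.

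Over all 16 libraries the pattern of the members is that of genes with a large difference between the populations, and likeness to it is a description. Among 14018 genes with at least 5 CPM in mature mTEC, those most like Ncf1 by Pearson's r of log2(CPM + 1) were Vmo1 (0.997), Tac2, Slpi, Tbx21 and Il12a (0.995). Those most like Lsp1 were Ccl1 (0.997), Ccl25, Krt72, Nckap1l and Fcna (0.996), and those most like Ptprc were Tdrd9 (0.979), Fam83c, Lyplal1, Gm5893 and Lrrc15 (0.967). The 16 points share the split into mature and immature libraries, which also differ in depth.

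The study asked what loss of RBFOX factors does in mTEC, and none of the 9 genes was called in a comparison of tKO with control mice. In mature mTEC of the Rbfox1 line, where 0.0166% of 18021 genes were called, their log2 fold changes lay between -0.07 and 0.38. In mature mTEC of the Rbfox2 line (0.0277% called) they lay between -0.17 and 0.24. In immature mTEC, where 7 of the 9 could be tested, they lay between -0.83 and 1.11 in the Rbfox1 line (0.0306% of 13060 genes called) and between -0.09 and 0.40 in the Rbfox2 line (0.0536% called). The level of Rbfox1 itself in immature mTEC was little lower in Rbfox1 tKO than in control mice. The ends of the range in the immature Rbfox1 line belonged to genes of few counts: Cybb with 34 and 26 counts in tKO and 14 and 18 in control mice (log2 fold change 1.11, SE 0.423, adjusted p = 0.781 in edgeR), and Coro1a with 11 and 13 against 16 and 34 counts (-0.83, SE 0.460, adjusted p = 0.862 in edgeR).

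Rac2 came closest to a difference. In immature mTEC it was at 39.3, 51.5, 41.0 and 46.1 CPM in the 4 tKO mice and at 26.9, 33.4, 33.5 and 33.5 CPM in the 4 control mice. The groups did not overlap, but the share of all genes that separate in this way is not given here, and nothing is read from it. With both lines in 1 fit the log2 fold change was 0.50 (SE 0.139, unadjusted p = 0.00212, adjusted p = 0.364 in edgeR, with 0.0306% of genes called). In mature mTEC Rac2 was at 330, 268, 463 and 496 CPM in tKO and 258, 202, 373 and 462 CPM in control mice, groups that overlap unless each line is taken alone. The log2 fold change was 0.29 (SE 0.0852, unadjusted p = 0.00277, adjusted p = 0.859 in edgeR, with 0.0166% of genes called). Its adjusted p in mature mTEC ranged from 0.00626 without a filter on low counts to 1 over the alternatives, and no alternative brought its fold over 2. By line, the log2 fold change of Rac2 was 0.38 (SE 0.122) in mature and 0.58 (SE 0.191) in immature mTEC of the Rbfox1 line, and 0.20 (SE 0.118) and 0.40 (SE 0.209) in those of the Rbfox2 line, and all 4 adjusted p in edgeR were between 0.717 and 1. Ncf4 also had the same sign in both populations, with 0.20 (SE 0.0687, adjusted p = 0.999 in edgeR) in mature and 0.40 (SE 0.184, adjusted p = 0.655) in immature mTEC of both lines. Cybb had 0.81 (SE 0.329, adjusted p = 0.587) and Cyba -0.31 (SE 0.122, adjusted p = 0.568) in immature mTEC. For Ncf1 and Ptprc in mature mTEC the log2 fold changes were 0.02 (SE 0.0656) and -0.05 (SE 0.164).

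The rise from immature to mature mTEC was also compared between the 4 tKO and the 4 control mice. None of the 9 genes, and 0% of the 17442 genes tested, passed an adjusted p of 0.05 in edgeR. Of the members, 1 had an unadjusted p under 0.05, against 5.20% of all genes. That was Cyba, with a difference of 0.31 on the log2 scale (SE 0.131, adjusted p = 0.923), and the difference for Cybb was -0.64 (SE 0.366, adjusted p = 0.966).

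Some of the members differed between the mouse lines, in a comparison that was added after the values had been seen. Ncf4 was at 135, 114, 113 and 105 CPM in mature mTEC of the Rbfox1 line and at 193, 204, 175 and 168 CPM in that of the Rbfox2 line, with tKO mice first. Rac2 was at 330, 268, 258 and 202 CPM in the Rbfox1 line and 463, 496, 373 and 462 CPM in the Rbfox2 line. For both genes all 4 mice of the Rbfox2 line, tKO and control, lay above all 4 of the Rbfox1 line. The same held for Cyba, at 515 to 596 against 432 to 471 CPM. The share of all genes that separate in this way is not given here. The log2 difference (Rbfox2 line minus Rbfox1 line) was 0.67 for Ncf4 (SE 0.0698, adjusted p = 5.92e-06 in edgeR) and 0.77 for Rac2 (SE 0.0852, adjusted p = 1.07e-05 in edgeR). Cyba had a smaller difference of 0.27 (SE 0.0583, adjusted p = 0.00436 in edgeR), and Ncf1 one of -0.16 (SE 0.0657, adjusted p = 0.105 in edgeR). None reached a fold of 2, the rule under which 1.04% of 18021 genes were called, and 3 members passed the adjusted p alone, as did 13.2% of all genes.

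In immature mTEC 2 members passed the adjusted p alone, both lower in the Rbfox2 line. Cyba was lower in the Rbfox2 line by a log2 difference of -0.46 (SE 0.118, adjusted p = 0.0106 in edgeR), with 68.1 to 97.4 CPM against 85.6 to 144 CPM, and Ncf1 by -0.58 (SE 0.189, adjusted p = 0.0354 in edgeR), with 12.5 to 22.0 CPM against 22.0 to 27.5 CPM. Ncf4 and Rac2 had differences of 0.06 (SE 0.190) and 0.05 (SE 0.142). None of the 7 tested reached a fold of 2, under which rule 5.05% of 13060 genes were called, and 23.4% of all genes passed the adjusted p alone. The rise from immature to mature mTEC was larger in the Rbfox2 line for Cyba, by 0.72 on the log2 scale (SE 0.131, adjusted p = 0.00106 in edgeR), and for Rac2, by 0.72 (SE 0.179, adjusted p = 0.0156 in edgeR), and 4.76% of 17442 genes passed this test. The fit did not pair the mature and immature library of a mouse. For Ncf4 the difference in the rise was 0.60 (SE 0.187, adjusted p = 0.068 in edgeR).

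Ncf4 and Rac2 lie on chromosome 15, 0.938 and 1.25 Mb from the end of Rbfox2 (77078990 to 77307004), the gene that carries loxP sites in all mice of the Rbfox2 line. Of 113 tested genes within 2 Mb of Rbfox2, 20, or 17.7%, passed an adjusted p of 0.05 between the lines in mature mTEC, against 13.2% of all genes. The 20 include Rbfox2 itself and also Ncf4 and Rac2, whose difference between the lines was seen first. The share is therefore a description, and nothing is read from it. In immature mTEC it was 12 of 82 genes, or 14.6%, against 23.4% of all. Line, litter and the genotype around the floxed gene cannot be told apart in these samples.

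**Figure D4:**
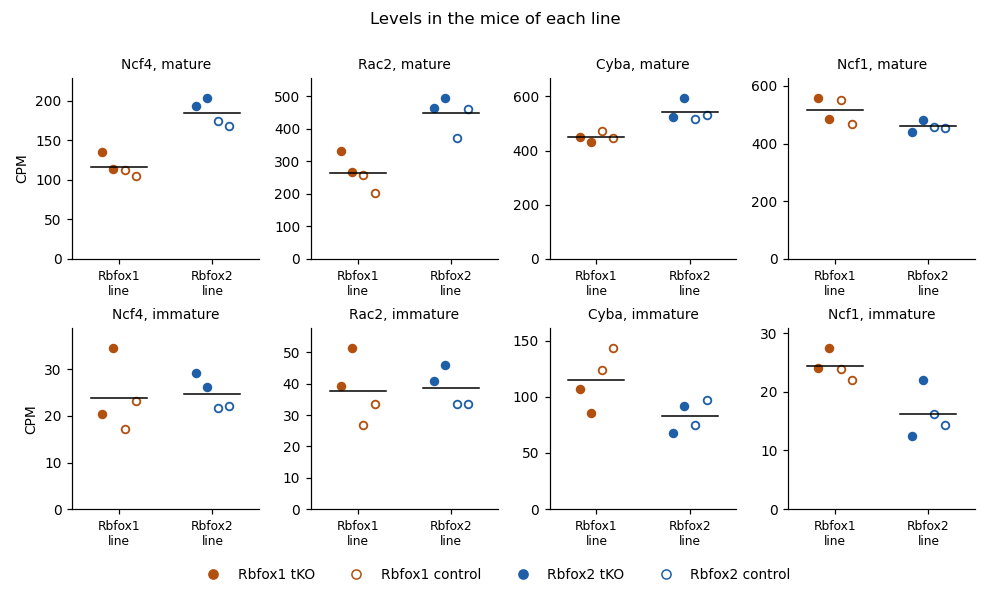
CPM of Ncf4, Rac2, Cyba and Ncf1 in mature (top) and immature (bottom) mTEC of the Rbfox1 and the Rbfox2 line, with 1 point per mouse, filled for tKO and open for control, a line at the mean of 4 mice, and each axis from 0. In mature mTEC the Rbfox2 line lies above the Rbfox1 line for Ncf4 (168 to 204 against 105 to 135 CPM) and Rac2 (373 to 496 against 202 to 330 CPM). It also does so for Cyba (515 to 596 against 432 to 471 CPM). In immature mTEC it does not for any of these. The share of all genes that separate in this way is not given here.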

How the data were processed

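Mature and immature mTEC of 8 mice gave 16 RNA-seq libraries. The authors deposited raw counts of reads per gene in 1 table, after removing duplicates and down-sampling libraries to a smaller number for immature than for mature mTEC. Alignment and counting used featureCounts 1.6.0, Picard 2.10.9 and HISAT2 2.1.0 on mm10, as the submitters' processing notes list them, with the strand setting not given in the sources used here. Symbols and positions came from GENCODE M21 (GRCm38), promoter windows from RefSeq.

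All genes were tested on the counts in R 4.3.3 by edgeR 4.0.16 (TMM, filterByExpr at a minimum count of 10, quasi-likelihood test), and a call needed a fold over 2 and an adjusted p (Benjamini-Hochberg) under 0.05, or the adjusted p alone for differences between effects. Both populations have 4 residual degrees of freedom before moderation. CPM were normalised over the 16 libraries. The test was tried on simulated counts. The 9 members and all gene lists were chosen with earlier results of these data known. Since the choice rests on a rise in mature mTEC, no p is given for a member between the populations, in either genotype. The genes named were the 9 members, the relatives Rac1, Coro1b, Coro1c and Cttn, the highest and lowest level and up to 3 called genes with the largest fold of each list, and the 5 genes most like Ncf1, Lsp1 and Ptprc, and Cybc1, Cd3e, Adgre1, Itgam, Clec9a and others given as defining markers were added after their values were seen.

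Replicates are separate mice. Mature and immature libraries of 1 number come from 1 mouse, and deviations from the condition means correlated by 0.176 to 0.302 between them. Controls were sex-matched littermates by the methods, and tKO and control mice of a number share their sex; these correlated by 0.0884 to 0.313. Both pairings were used for blocked fits. Other alternatives were DESeq2 1.42.0, its size factors, library totals, other filters, no fold threshold, equal depth, sex as a covariate, 1 fit of all libraries and each library left out. Alternative splicing was not analysed here. Some genes of the lists are not reported here.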

Additional observations from a re-analysis of the deposited data

Results flagged for a closer look

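Of the 36 groups of 4 mice (9 genes, 2 populations, 2 genotypes), 3 held a library far from the other 3 by Dixon's criterion, which chance meets in about 1 in 20 groups. Ncf1 in mature mTEC of control mice was at 552 CPM in Rbfox1 control replicate 2, where the others were at 454 to 469 CPM. Rac2 in immature mTEC of control mice was at 26.9 CPM in the same mouse, below 33.4 to 33.5 CPM in the others. Ptprc in immature mTEC of tKO mice was at 4.08 CPM in Rbfox1 tKO replicate 3, above 0.924 to 1.39 CPM in the others.

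The rise from immature to mature mTEC differed between the Rbfox2 and the Rbfox1 line for Cyba, by 0.72 on the log2 scale, and for Rac2, also by 0.72, both by an interaction term in edgeR that was added after the values had been seen. It did not pair the mature and immature library of a mouse. The cause was not tested.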

How the results depend on the processing

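Of 200 alternative values for the 13 counts of called members or relations, 196 stayed within 1.5 times the main count. Most of these main counts were 0, where only another 0 can stay within that limit. Those between the populations concern the rise by which the set was chosen, so nothing is read from this share. With at least 10 counts required in every library, only 5 of the 9 members passed the filter in control mice. The count for mature against immature mTEC moved there for that reason. Since the set was chosen by this rise, nothing is read from that count, nor from the one in tKO mice. Between the lines, the adjusted p without a fold threshold called 3 members in mature and 2 in immature mTEC instead of 0, and leaving out 1 library gave 0 to 1 in immature mTEC, where 1 was Cybb without Rbfox2 control replicate 2. With the replicate block for the pairing of mice, 0 members were called in each comparison of tKO with control mice, as without it. No blocked fit could be made for the level difference between the lines, which share no mouse. The line difference in the rise from immature to mature mTEC could have been blocked by mouse, and such a fit was not made. Of 754 values for single genes, 14 reversed, all of results that were not called. Library totals turned the line difference in immature mTEC to -0.023 for Ncf4 and -0.042 for Rac2, and leaving out 1 library moved it from -0.11 to 0.28 for Ncf4 and from -0.052 to 0.15 for Rac2. Leaving out 1 library also moved the tKO effect in mature mTEC of both lines from -0.027 to 0.072 for Ncf1 and from -0.14 to 0.0072 for Ptprc, and Pearson's r of Ptprc and Cybb in immature mTEC from -0.27 to 0.21. The r of Ptprc and Coro1a became -0.062 without the 2 libraries farthest from the median of Ptprc. The cause of these reversals was not tested. Depth limits Hcls1 and Ptprc most, with few counts in any immature library.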
